A study of Caenorhabditis elegans with 16 samples.

Results

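The genes described here encode the subunits of the proteasome and were chosen by name. They are the genes whose symbol in the authors' deposited interaction table is pas, pbs, rpn or rpt followed by a number. The rule gave 33 of the 12690 genes of that table, and all 33 were found by their identifier among the 46911 genes of the count files. A subunit gene that carries another kind of name is not counted. Of the 33 genes, 14 encode the core particle (pas-1 to pas-7 for the alpha rings, pbs-1 to pbs-7 for the beta rings). The other 19 encode the regulatory particle: 6 ATPases of the base (rpt-1 to rpt-6), 4 other base subunits (rpn-1, rpn-2, rpn-10 and rpn-13) and 9 genes of the lid (rpn-3, rpn-5, rpn-6.1, rpn-6.2, rpn-7, rpn-8, rpn-9, rpn-11 and rpn-12). All 33 passed the filter on low counts, 1 CPM (a count scaled to library size) or more in 4 or more libraries, as did 14058 genes in all.

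The proteasome degrades proteins that carry ubiquitin chains. Its core particle is a barrel of alpha and beta rings with the cutting sites inside, and the regulatory particle binds the ubiquitin chain, removes it, unfolds the protein and feeds it into the barrel. In Caenorhabditis elegans, proteasome subunit genes are known to be transcribed together by SKN-1A, a product of skn-1 that is activated when the proteasome is impaired, and rpn-6.1 is known for its link to long life in animals without a germ line.

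Messenger RNA was sequenced from whole larvae of the first stage (L1) that hatched into S-basal, a buffer without food, at 20 °C. They were collected 24 hours after bleaching, which is 12 hours after hatch, and 10000 larvae went into each library. Wild type was strain N2. The irld mutant was strain LRB444, with the alleles irld-39(duk1) and irld-52(duk17), and the daf-2 mutant was strain CB1370, with daf-2(e1370). The triple mutant carried all 3 alleles and came as independent lines, LRB457 (replicates 1 and 3) and LRB458 (replicates 1 and 4). Each of the 4 groups had 4 libraries, which the labels call biological replicates. All groups but the triple mutant were 1 strain each, so a difference between strains cannot be told apart from one between alleles in those groups. The product of daf-2 is the worm's receptor for insulin-like signals, and its loss of function is known for long life and stress resistance. The irld family codes for proteins that resemble the ligand-binding part of such receptors. All animals were starved, so no library shows the fed state.

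Libraries held 14033534 to 24903552 counts assigned to genes, of which the proteasome subunit genes took 26186 to 52789, or 0.172% to 0.219%. The genes that carry the alleles do not check the labels. The gene daf-2 was not called in any comparison (407.6 ± 165, 510.2 ± 85.9, 450.2 ± 27.4 and 411.8 ± 34 CPM in wild type, irld, daf-2 and triple mutant libraries, SD, n = 4), and irld-39 and irld-52 had 1 to 12 counts per library. Markers of muscle, pharynx, intestine, neurons, epidermis and germ cells had counts in every group, with no marker at 0 over a group. Of the epidermis markers, dpy-13 had 0.19 to 1.58 CPM and failed the filter. The others, dpy-7 and lin-26, had 0.28 to 15.4 and 26.3 to 70.2 CPM. Vitellogenin genes, which mark adults, were not at 0 over a group either, and summed to 2.93 to 26.2 CPM. A pair of wild-type libraries, replicates 2 and 3, stood apart from the others in how counts depended on gene length. The median deviation of 1614 genes of at least 3000 exon bases minus that of 1825 genes about as long as the core particle genes was -0.38 and -0.80 (log2 CPM) in them, and -0.06 to 0.19 in the other 14 libraries. That matters here because core particle genes are short (801 to 1059 exon bases, median 880.5) and regulatory particle genes are longer (855 to 3171, median 1493), so values without those libraries are given below where they change a call or move a value by over 1.5 times.

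Per length of exon, proteasome subunit genes were among the more abundant messages of the starved larva. In wild type their median was 45.05 CPM per kb, against 8.22 over all tested genes with an annotated length, and the median gene stood at percentile 86.4 of those levels. The core particle genes had a median of 60.4 CPM per kb and the regulatory particle genes 38.3. By subcomplex the medians were 61.3 for the beta ring, 53.6 for the alpha ring, 43.4 for the base ATPases, 41.7 for the other base subunits and 29.7 for the lid. All these medians include wild type replicates 2 and 3, where long genes were low beside short ones. The part of those libraries in the gap between particles was not tested. The gene with the highest level was pas-3 (WBGene00003924, chromosome I, 5105110 to 5106048, WBcel235), an alpha ring subunit, at 138.5 CPM per kb. Next came pbs-5, the beta subunit with the chymotrypsin-like cutting site, at 102.9, and pbs-1, another beta subunit, at 86.4. The lowest by far was rpn-6.2 (WBGene00010309, chromosome III, 8999817 to 9001999) at 2.41 CPM per kb, at percentile 23.1, and the next lowest were the lid genes rpn-5 at 22.8 and rpn-12 at 23.3.

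**Figure D1:**
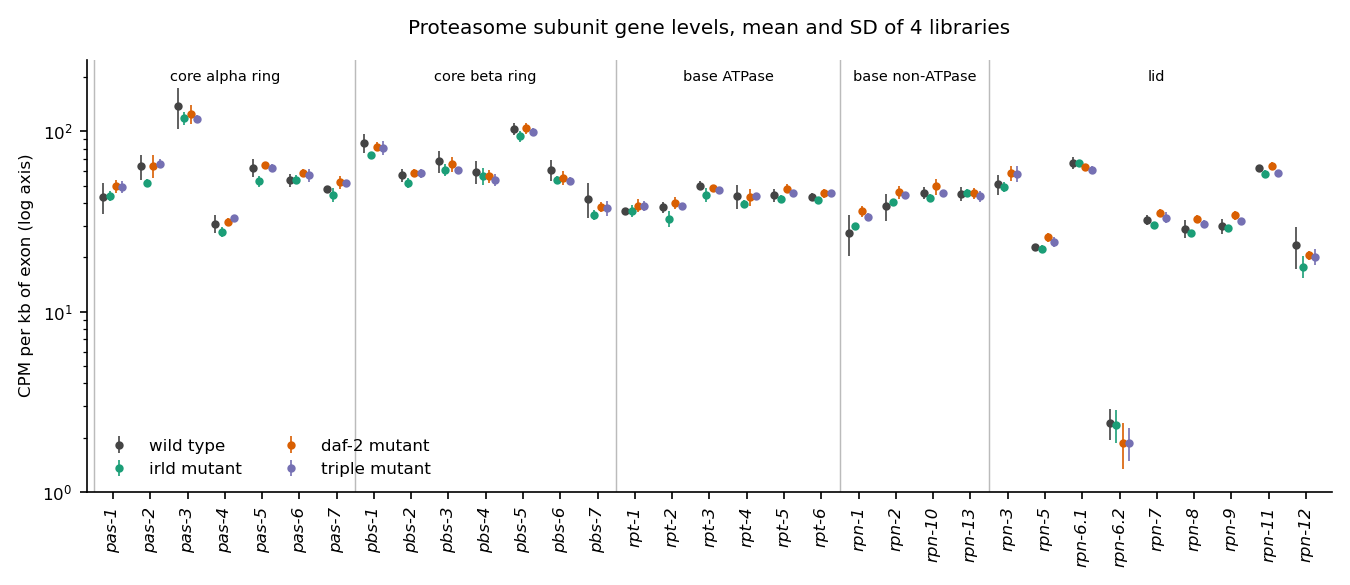
Level of each proteasome subunit gene in CPM per kb of exon (log axis), ordered by subcomplex. Points are means and bars SD of 4 libraries, coloured by group. The 4 groups lie close together for most genes, pas-3 is the highest at 138.5 in wild type, and rpn-6.2 lies far below the rest at 2.41.

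The genes rpn-6.1 and rpn-6.2 are related copies for 1 lid subunit and were present at very different levels. The main copy, rpn-6.1 (WBGene00004462, chromosome III, 6959110 to 6962001), had 107.1, 122.8, 102.1 and 108.5 CPM in wild type, 107.8, 108.8, 112.5 and 108.3 in irld, 101.5, 104.0, 110.6 and 101.1 in daf-2 and 105.7, 95.8, 100.6 and 101.6 in triple mutant libraries. Here and below the 4 values of a group are replicates 1 to 4, and those of the triple mutant are LRB457 replicates 1 and 3, then LRB458 replicates 1 and 4. The minor copy, rpn-6.2, had 4.36, 2.81, 4.32 and 3.51 CPM in wild type, 2.88, 3.17, 4.12 and 4.5 in irld, 2.68, 3.26, 1.88 and 3.85 in daf-2 and 2.97, 3.54, 2.09 and 3.04 in triple mutant libraries, from 29 to 79 counts per library. Libraries of all groups overlapped for rpn-6.2. For rpn-6.1, all 4 triple mutant libraries lay below all 4 irld libraries, by a log2 fold change of -0.12 ± 0.08 that was not called (standard error; edgeR quasi-likelihood test, adjusted p = 0.345). Reads with up to 2 places in the genome were kept by the submitters, so a read that fits both copies could have been assigned to either. Of all members rpn-6.2 had the lowest fold change in 4 comparisons, -0.36 ± 0.24 for the daf-2 mutant against wild type and -0.34 ± 0.24 for the triple against the irld mutant among them, and neither was called (edgeR, adjusted p = 0.339 and 0.376). They were -0.20 without daf-2 replicate 3 and -0.18 without LRB458 replicate 1, and -0.55 for the daf-2 mutant without its replicate 4.

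Levels varied little between replicates. Across the 4 libraries of a group the median coefficient of variation of the 33 genes was 11.6% in wild type, 5.97% in irld, 7.23% in daf-2 and 5.14% in triple mutant larvae. The medians over the 7486 genes with a mean of at least 10 CPM were 17.3%, 9.70%, 9.26% and 8.39% in the same order. The widest spread in wild type was in rpn-12 (26.1%), pas-3 (25.9%) and rpn-1 (25.7%), all of them through replicate 3. The tightest values in wild type and in the triple mutant were those of rpn-11, which encodes the enzyme that removes ubiquitin chains at the lid. It had 76.5, 79.1, 75.8 and 76.6 CPM in wild type, 77.2, 70.3, 70.7 and 69.02 in irld, 83.1, 74.7, 83.1 and 77.6 in daf-2 and 72.7, 72.2, 72.7 and 73.2 in triple mutant libraries. Triple mutant libraries lay within 1 CPM of each other, below every wild-type and every daf-2 library. Within the daf-2 group, replicate 3 was the highest library for 28 of the 33 genes and replicate 4 the lowest for 17, so the genes moved together between libraries of 1 group. In bulk samples, more message per cell and more cells of a type that makes more of it cannot be told apart.

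**Figure D2:**
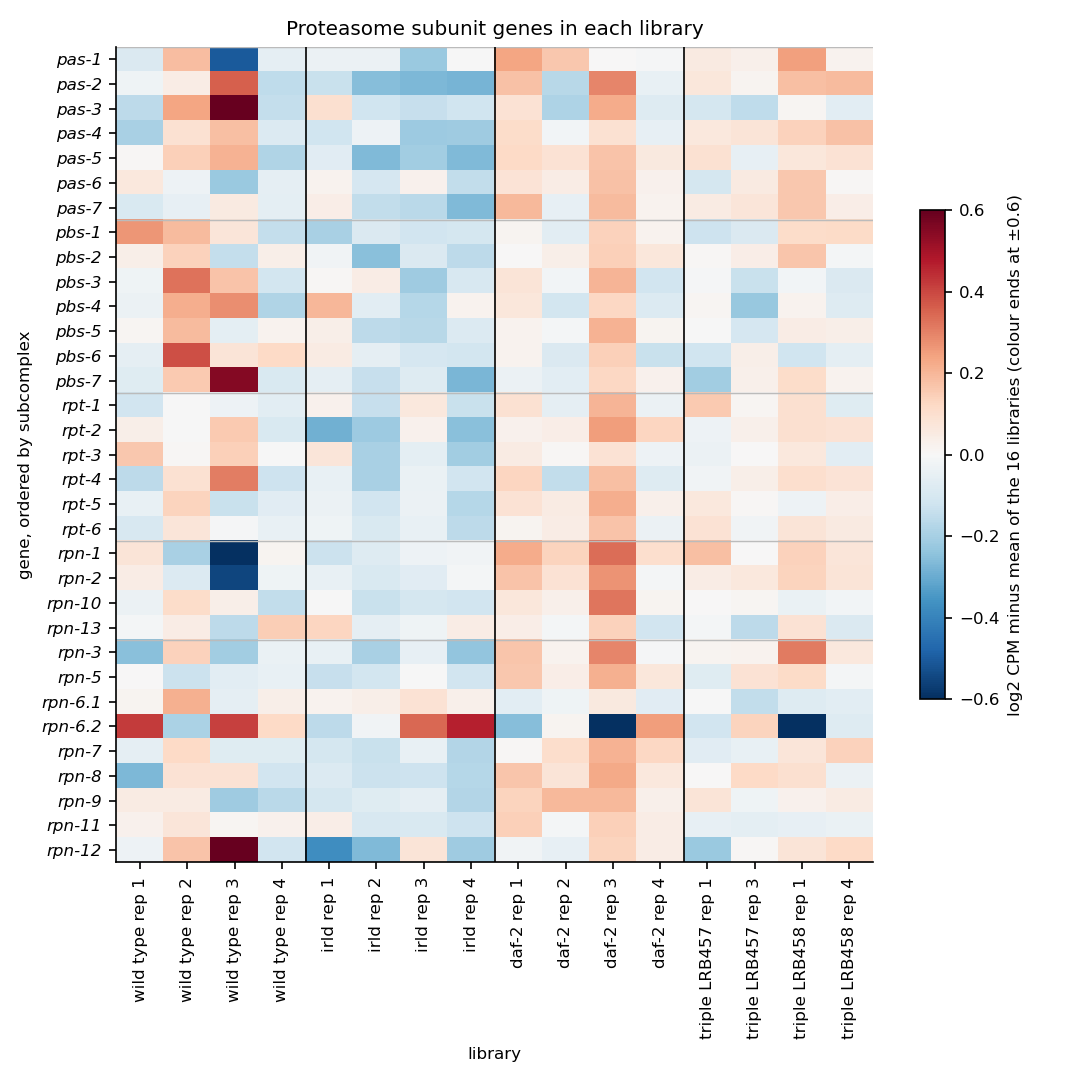
Log2 CPM of each proteasome subunit gene in each of the 16 libraries, minus its mean over all 16. Rows are genes by subcomplex, columns are libraries by group, red is higher and blue lower, and colours end at ±0.6. Wild type replicate 3 has pas-3, pbs-7 and rpn-12 high and rpn-1 and rpn-2 low, daf-2 replicate 3 is high for most genes, and most irld values lie below the mean.

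The order of the groups was uneven across the 33 genes. The irld mutant had the lowest mean log2 CPM of the 4 groups for 22 genes (66.7%), 9 of the core and 13 of the regulatory particle, against 19.9% of the 7486 genes above. The daf-2 mutant had the highest mean for 18 genes (54.5% against 27.5%), 6 of the core and 12 of the regulatory particle. Without wild type replicates 2 and 3, a step chosen after their values were seen, the counts were 21 (63.6% against 21%) and 23 (69.7% against 28%). These genes share libraries and moved together within groups, so the counts describe 1 pattern of the 16 libraries. The comparisons below also share libraries, since each group serves as the reference or the test of several.

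With the irld alleles in an otherwise wild-type background, no proteasome gene was called, and over all genes tested 0.00711% were called higher and 0% lower (Benjamini-Hochberg adjusted p under 0.05, edgeR). Log2 fold changes were below 0 for 27 of 33 genes, with a median of -0.09 against -0.002 over all genes (core -0.16, regulatory -0.06), and a median of -0.05 without wild type replicates 2 and 3. All 7 beta ring genes and all 9 lid genes were below 0. At an unadjusted p under 0.05, 6 genes were lower and 0 higher, pas-2, pas-5, pbs-1, pbs-7, rpn-12 and rpt-2, or 18.2% against 6.49% of all genes in either direction. DESeq2 also called 0. For none of the 33 did irld and wild-type libraries separate, against 0.925% of genes higher and 1.31% lower. The 95% intervals of 32 genes lay within a 1.5-fold change in either direction, all but rpn-12.

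The lowest fold change of that comparison was in rpn-12, a lid subunit. It had 16.9, 19.4, 27.4 and 15.9 CPM in wild type, 13.3, 14.3, 18.2 and 14.9 in irld, 17.02, 16.7, 18.96 and 17.8 in daf-2 and 14.8, 17.3, 18.2 and 18.8 in triple mutant libraries. Wild type replicate 3 was the highest of the 16 libraries and irld replicate 3 exceeded 2 of the wild-type libraries. The log2 fold change was -0.39 ± 0.15 (edgeR, adjusted p = 0.69), and -0.20 without wild type replicate 3. The highest was rpn-1 at 0.13 ± 0.14 (edgeR, adjusted p = 0.827), which became -0.03 without that library.

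With daf-2(e1370) in an otherwise wild-type background no proteasome gene was called either, although 7.97% of all genes were called higher and 7.74% lower. The median log2 fold change was 0.05 against -0.003 over all genes (core 0.01, regulatory 0.11), with 22 of 33 above 0, and it was 0.14 without wild type replicates 2 and 3. At an unadjusted p under 0.05, 4 genes were higher and 0 lower, rpn-1, rpn-2, rpn-5 and rpn-9, or 12.1% against 30.1% of all genes in either direction. DESeq2 called 1, rpn-1 (adjusted p = 0.0462). In rpn-1 and rpn-5 all daf-2 libraries were above all wild-type libraries, 6.06% of the members against 9.45% of all genes, and in none were they all below, against 8.81%. The 95% intervals of 31 genes lay within 1.5-fold, all but rpn-1 and rpn-6.2. Among genes with at least 10 CPM the median size of a log2 change was 0.21, and among the 33 it was 0.12.

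The largest value was in rpn-1 (WBGene00004458, chromosome IV, 6906420 to 6909913), the large base subunit that docks ubiquitin chains and their shuttles. It had 104.7, 86.5, 55.5 and 100.4 CPM in wild type, 90.8, 94.05, 97.1 and 97.7 in irld, 115.7, 108.6, 125.2 and 106.4 in daf-2 and 112.5, 99.3, 109.0 and 104.4 in triple mutant libraries. Every daf-2 library was above every wild-type library, and wild type replicate 3 was far below the rest. The log2 fold change was 0.39 ± 0.14 (edgeR, adjusted p = 0.0764), and 0.23 without wild type replicate 3. With the trend of each library with exon length removed, a step chosen after these values were seen, that library stood at 72.2 CPM for rpn-1, against 93.8 to 100.6 in the other 3 of wild type. The base scaffold gene rpn-2 was low in the same library, at 90.9 CPM against 125.8 to 137.3, and 118.1 with the trend removed.

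The same allele was compared in the irld background through the triple mutant against the irld mutant. There 1 proteasome gene rose and 0 fell (3.03% and 0%), against 9.80% and 8.64% of all genes. The median log2 fold change was 0.13 against -0.01 over all genes, equal in the core (0.13) and the regulatory particle (0.13), with 27 of 33 above 0 and all 6 base ATPases among them. In 13 genes (39.4%) every triple mutant library was above every irld library, against 13.1% of all genes, and in 1 gene (3.03%), rpn-6.1, every one was below, against 13.9%. The 13 were pas-1, pas-2, pas-4, pas-5, pbs-2, rpn-1, rpn-2, rpn-3, rpn-8, rpn-9, rpt-4, rpt-5 and rpt-6. Their changes were small, and the 95% intervals of 31 genes lay within 1.5-fold, all but pas-2 and rpn-6.2.

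The gene that passed the test was pas-2 (WBGene00003923, chromosome V, 10770368 to 10771351), an alpha ring subunit. It had 50.4, 52.9, 65.96 and 46.2 CPM in wild type, 46.8, 43.04, 42.5 and 42.3 in irld, 58.1, 45.7, 62.9 and 49.7 in daf-2 and 53.8, 51.9, 58.2 and 58.6 in triple mutant libraries. Triple mutant libraries were all above the irld libraries, and the wild-type and daf-2 libraries overlapped both. The log2 fold change was 0.35 ± 0.12 (edgeR, adjusted p = 0.0463). The call is close to the threshold and was lost in 9 of the 16 fits that left out 1 library, with adjusted p from 0.0147 to 0.11. The next genes were pas-4 at 0.26 ± 0.09 and pas-5 at 0.25 ± 0.09 (adjusted p = 0.0532 and 0.06), both alpha ring subunits. With the trend with exon length removed, pas-2, pas-4, pas-5 and rpt-2 rose, 4 of 33 against 11.5% of all genes.

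The pooled effect of daf-2(e1370) sets the 8 libraries with the allele against the 8 without it. Of the 33 genes 6 rose (18.2%) and 0 fell here, against 16.1% and 15.0% of all genes. In this fit the share that rose was near the background and the share that fell was below it, and other fits are given below. The 6 were 1 core gene, pas-7, and 5 regulatory genes, rpn-1, rpn-3, rpn-5, rpn-8 and rpn-9, of which the last 4 belong to the lid. Fold changes among the 6 were between 1.11 and 1.21. The median log2 fold change of all 33 was 0.10, against -0.005 over all genes (alpha ring 0.15, beta ring -0.01, base ATPases 0.10, other base subunits 0.15, lid 0.14), and 25 were above 0. At an unadjusted p under 0.05, 12 genes were higher and 0 lower, 36.4% against 41.2% of all genes. In none of the 33 did the 8 libraries of each side separate, against 4.19% of genes higher and 4.13% lower.

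For pas-7 (WBGene00003928, chromosome II, 10098782 to 10099854), an alpha ring subunit, the values were 44.7, 46.1, 49.5 and 45.8 CPM in wild type, 49.1, 43.1, 42.6 and 39.8 in irld, 54.7, 46.04, 54.4 and 48.5 in daf-2 and 49.4, 50.3, 53.4 and 49.1 in triple mutant libraries. Both groups with the allele had higher means, and irld replicate 1 was as high as the lowest triple mutant library. The pooled log2 fold change was 0.17 ± 0.06 (edgeR, adjusted p = 0.0416). For rpn-1 the values are given above, and the pooled change was 0.28 ± 0.10 (edgeR, adjusted p = 0.0481).

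The lid scaffold gene rpn-3 (WBGene00004460, chromosome III, 8447353 to 8449346) had 83.99, 109.9, 86.4 and 97.1 CPM in wild type, 96.8, 87.3, 96.5 and 84.8 in irld, 112.2, 101.4, 122.3 and 99.6 in daf-2 and 100.9, 101.3, 124.1 and 104.6 in triple mutant libraries. Wild type replicate 2 was the only library without the allele that exceeded any library with it, and the triple mutant was led by LRB458 replicate 1. The pooled log2 fold change was 0.22 ± 0.08 (edgeR, adjusted p = 0.036). For rpn-5 (WBGene00004461, chromosome II, 4696418 to 4698427), another lid subunit, the values were 40.8, 37.2, 38.9 and 39.5 CPM in wild type, 36.9, 37.6, 40.7 and 37.6 in irld, 45.4, 41.8, 47.2 and 42.6 in daf-2 and 38.7, 43.2, 44.04 and 40.3 in triple mutant libraries. All daf-2 libraries were above all wild-type and irld libraries, and the triple mutant overlapped both. The pooled change was 0.15 ± 0.05 (edgeR, adjusted p = 0.0399).

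The gene rpn-8 (WBGene00004464, chromosome I, 4175319 to 4177271), which encodes the partner of the rpn-11 enzyme, had 30.4, 38.95, 38.9 and 33.9 CPM in wild type, 34.6, 33.5, 33.6 and 32.6 in irld, 41.1, 38.7, 42.96 and 38.3 in daf-2 and 36.7, 39.8, 39.2 and 35.8 in triple mutant libraries. Both groups with the allele were above every irld library, while wild type replicates 2 and 3 lay among them. Its pooled log2 fold change was 0.18 ± 0.06 (edgeR, adjusted p = 0.0379). The lid gene rpn-9 (WBGene00004465, chromosome II, 11237447 to 11238919) had 42.5, 42.5, 35.4 and 36.7 CPM in wild type, 38.2, 39.02, 39.6 and 36.4 in irld, 45.1, 47.1, 46.97 and 41.9 in daf-2 and 43.4, 40.4, 41.9 and 42.5 in triple mutant libraries. Both groups with the allele were above the irld mutant in every library, and wild type replicates 1 and 2 overlapped them. Its pooled change was 0.17 ± 0.06 (edgeR, adjusted p = 0.032). A non-coding gene, T06D8.12, overlaps 10.6% of its exon bases on the other strand, and the strand setting of the counting is not given in the sources used here.

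The pooled calls were close to the threshold. Among the 16 fits without 1 library, those of pas-7 and rpn-8 were lost in 13 each. The calls of rpn-1 and rpn-5 were lost in 9 each, that of rpn-9 in 7 and that of rpn-3 in 6. Leaving out 1 library changed the count of 6 to between 0 and 11, with 0 without irld replicate 4, daf-2 replicate 1 or daf-2 replicate 3, and 11 without wild type replicate 3. It was 2 without wild type replicate 4, 3 and 1 without irld replicates 1 and 2, and 1 to 3 without any 1 of the triple mutant libraries. Without wild type replicates 2 and 3 it was 13 of 33, against 16.4% of all genes, with 5 of the 6 among them. The call lost was that of rpn-5 (0.13, adjusted p = 0.0581), and the change of rpn-1 was 0.16 and still called. Without line LRB457 the count was 1 and without line LRB458 it was 0. With the trend with exon length removed 11 of 33 rose, against 18% of all genes, the same 6 and pas-2, pas-4, pas-5, rpn-2 and rpt-2. In this fit and in that without wild type replicates 2 and 3, the share that rose was above that of all genes. Each of these steps was chosen after values were seen. Of the marker lists, 2 also differed in level between groups. The 8 early embryo genes, none of them at 0 in any group, summed to 68.4 to 107.1 CPM in wild type, 44.6 to 116.2 in irld, 10.9 to 77.99 in daf-2 and 22.2 to 57.6 in triple mutant libraries. The neuron markers, with none at 0 either, summed to 478.4 to 517.8 CPM in daf-2 libraries, below all wild-type (537.7 to 566.8) and triple mutant (531.8 to 544.2) libraries and overlapping irld (512.5 to 575.5). The part of either list in the proteasome values was not tested.

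**Figure D3:**
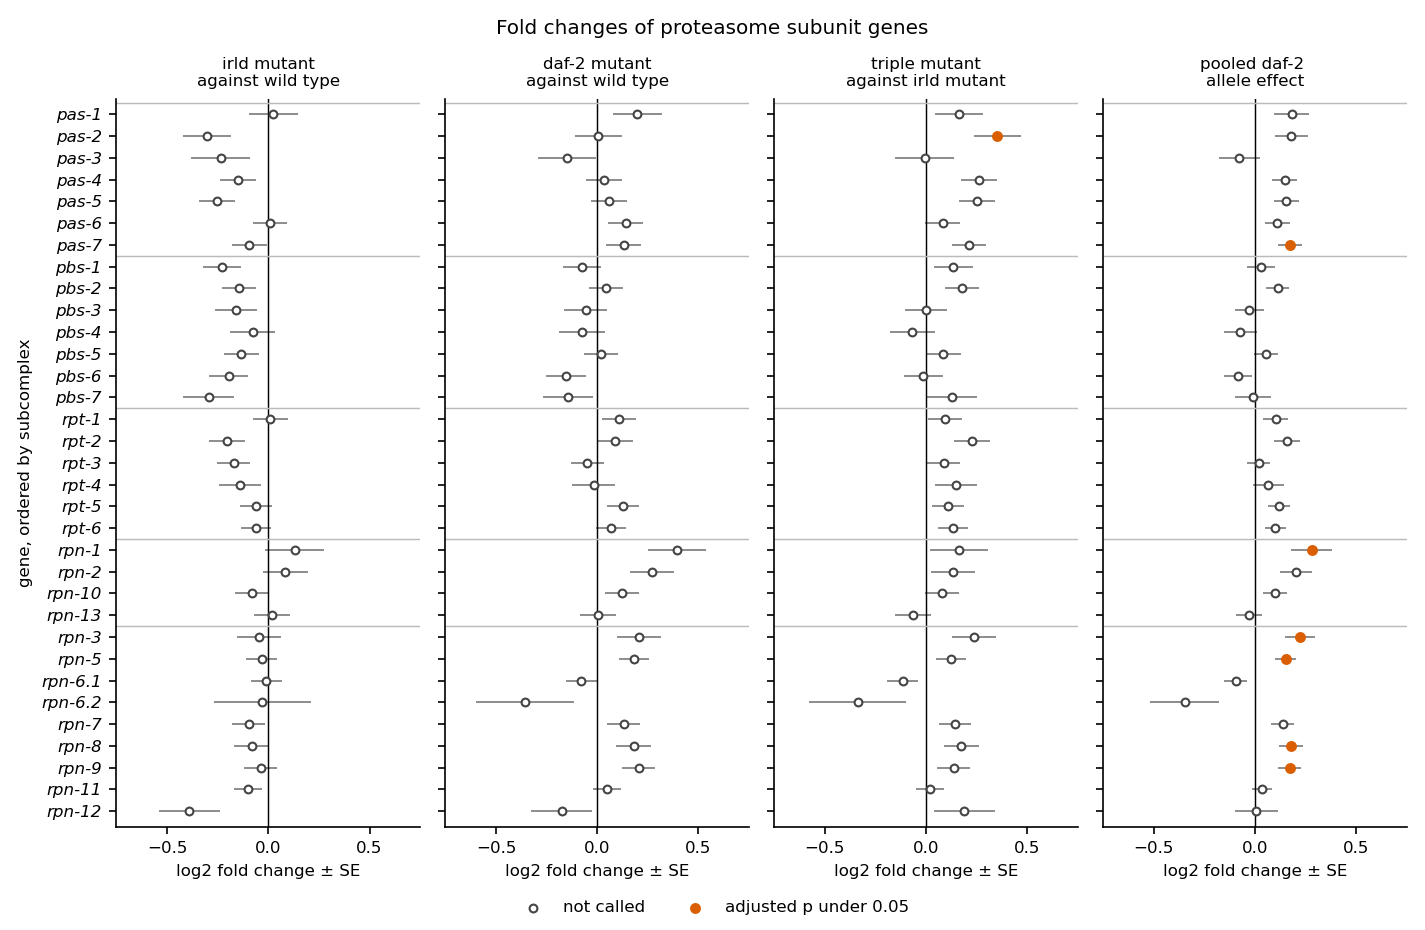
Log2 fold change ± SE of the 33 proteasome subunit genes in 4 comparisons, from 1 edgeR fit of 16 libraries. Filled points passed an adjusted p of 0.05. Irld values lie mostly left of 0 and both comparisons for daf-2(e1370) mostly right, with 1 gene called against the irld mutant and 6 in the pooled effect. The panels share libraries: the irld mutant and wild type each enter several of them.

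Members often used to stand for the proteasome did not pass the test in any of the 7 comparisons. The beta subunit gene pbs-5 (WBGene00003951, chromosome I, 14719167 to 14720477) had 106.5, 120.6, 101.6 and 107.2 CPM in wild type, 108.4, 94.97, 94.2 and 99.8 in irld, 107.2, 105.0, 122.2 and 106.9 in daf-2 and 105.5, 98.5, 109.1 and 108.5 in triple mutant libraries. The groups overlapped, and the pooled log2 fold change was 0.05 ± 0.06 (edgeR, adjusted p = 0.564). The ATPase gene rpt-3 (WBGene00004503, chromosome III, 6489793 to 6491282) had 71.7, 64.5, 70.9 and 63.97 CPM in wild type, 67.5, 56.02, 61.6 and 55.6 in irld, 66.4, 64.5, 68.2 and 62.8 in daf-2 and 62.6, 64.3, 67.1 and 61.5 in triple mutant libraries, again with overlap and a pooled change of 0.02 ± 0.06 (adjusted p = 0.85). The ubiquitin receptor gene rpn-10 (WBGene00004466, chromosome I, 10730712 to 10732424) had 57.3, 63.5, 60.3 and 53.01 CPM in wild type, 58.7, 53.6, 54.6 and 54.4 in irld, 61.6, 60.1, 73.6 and 59.5 in daf-2 and 58.96, 59.3, 57.1 and 58.03 in triple mutant libraries. Its daf-2 libraries were all above its triple mutant libraries, and replicate 3 was the highest, with a pooled change of 0.10 ± 0.06 (adjusted p = 0.233). For rpn-6.1 the pooled change was -0.10 ± 0.06 (adjusted p = 0.198), opposite in sign to the median of the 33.

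The abundant alpha ring gene pas-3 had 98.7, 129.5, 166.7 and 99.8 CPM in wild type, 117.7, 101.3, 99.9 and 101.4 in irld, 116.9, 96.8, 128.4 and 104.2 in daf-2 and 102.4, 99.04, 111.0 and 105.5 in triple mutant libraries. Wild type replicates 3 and 2 were its highest libraries, and apart from them the groups overlapped. Its change was -0.15 ± 0.14 for the daf-2 mutant and -0.23 ± 0.14 for the irld mutant against wild type (edgeR, adjusted p = 0.52 and 0.695).

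The irld alleles were also compared in the daf-2 background. Between triple and daf-2 mutants no proteasome gene was called, against 0.0142% of genes called higher and 0.0782% lower, and none had an unadjusted p under 0.05, against 6.51% of all genes. DESeq2 called 0 as well. The median log2 fold change was -0.05 against -0.02 over all genes, with 30 of 33 below 0. In rpn-10 and rpn-11 all triple mutant libraries were below all daf-2 libraries, 6.06% against 4.30% of genes, and in none were they all above, against 2.02%. The lowest value was that of rpn-11, -0.13 ± 0.07 (edgeR, adjusted p = 0.78). The highest was that of pas-4, an alpha ring subunit with 23.6, 28.7, 30.6 and 25.5 CPM in wild type, 24.8, 26.4, 23.1 and 23.3 in irld, 29.2, 26.7, 28.8 and 26.1 in daf-2 and 28.2, 28.5, 29.7 and 30.5 in triple mutant libraries, at 0.08 ± 0.09 (adjusted p = 0.903). Triple mutant pas-4 libraries were all above the irld libraries and overlapped the other groups. All 33 intervals lay within 1.5-fold.

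Between the triple mutant and wild type, too, no proteasome gene was called, against 10.1% of genes higher and 10.4% lower. DESeq2 also called 0, and 1 gene, pbs-6, had an unadjusted p under 0.05, with a change of -0.21 ± 0.10 (edgeR, adjusted p = 0.144). The median was 0.02 against 0.005 over all genes, with 18 above 0 and 15 below, and 0.07 without wild type replicates 2 and 3. Every triple mutant library was above wild type in rpn-2 (3.03%, against 10.9% of genes) and below it in rpn-11 (3.03%, against 11.3%).

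The interaction asks whether the effect of the irld alleles differed between the daf-2 backgrounds. No proteasome gene was called, against 0.0142% of genes higher and 0.0498% lower. None had an unadjusted p under 0.05, against 6% of all genes, and DESeq2 called 0. The median was 0.03 (core 0.14, regulatory -0.02), from -0.23 ± 0.20 in rpn-1 to 0.36 ± 0.21 in rpn-12. Without wild type replicate 3 those values were -0.07 and 0.17, and over the fits without 1 library the median ran from -0.03 to 0.13. Intervals of 27 genes lay within 1.5-fold. In the authors' deposited table, whose interaction has the opposite sign, the lowest values were -0.42 in rpn-12 and -0.40 in pas-2. The authors' deposited table gives p = 0.0292 for pas-2 and 0.0483 for pas-4, the members under 0.05, and its adjusted p was at least 0.767 for all 33.

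Core and regulatory particle genes were compared within each library as the difference of their mean log2 CPM, with rpn-6.2 left out. These CPM are not scaled to exon length, so the sign is not that of the levels per kb above. The difference was -0.19, -0.09, -0.03 and -0.23 in wild type, -0.15, -0.19, -0.32 and -0.22 in irld, -0.20, -0.26, -0.24 and -0.24 in daf-2 and -0.23, -0.23, -0.18 and -0.20 in triple mutant libraries. Wild type replicates 2 and 3, the libraries whose long genes were low, were the closest to 0, and the other 14 libraries ran from -0.32 to -0.15. The means were -0.14 ± 0.09, -0.22 ± 0.07, -0.24 ± 0.02 and -0.21 ± 0.02 (SD, n = 4), and the groups overlapped. With the trend with exon length removed from every library, the groups overlapped as well, and the means were -0.21 ± 0.06, -0.19 ± 0.05, -0.22 ± 0.04 and -0.19 ± 0.03 in the same order.

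The same held for fold changes. The median of the core genes minus that of the regulatory genes was -0.09 for the irld mutant and -0.10 for the daf-2 mutant, both against wild type, and 0.15 for the interaction. With the trend removed these were -0.02, -0.01 and 0.05, and with wild type replicates 2 and 3 left out they were -0.004, -0.03 and 0.06. Core and regulatory genes differ in exon length, so removing the trend cannot tell a length effect from a particle difference that follows length. Between the triple and the irld mutant, where wild type does not enter, the difference was 0.00. No test is given, since subunit genes are not replicates.

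**Figure D4:**
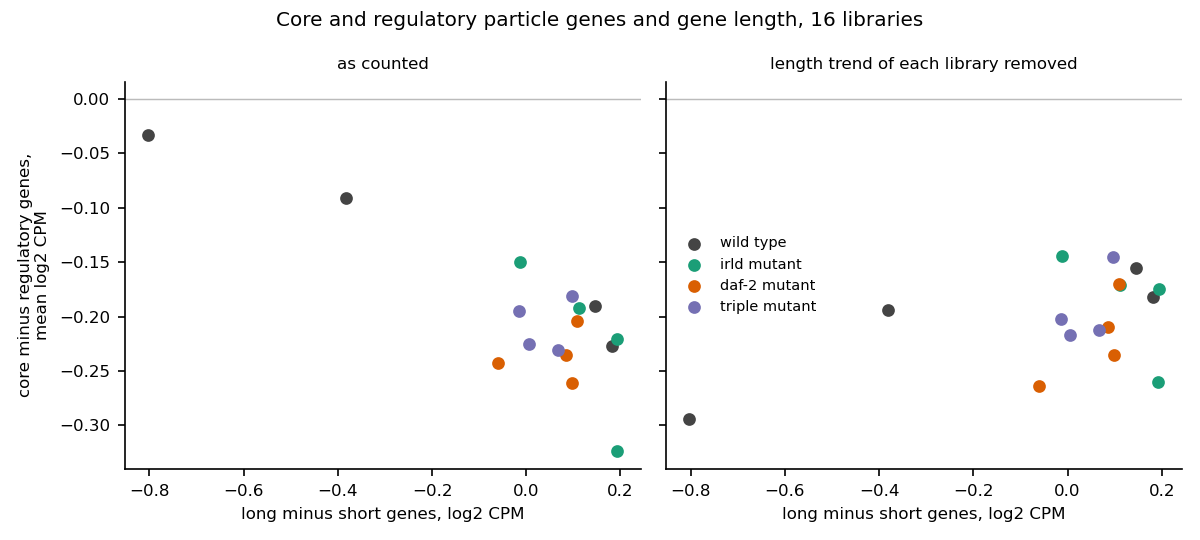
Mean log2 CPM of core minus regulatory particle genes in each library (y axis) against the median deviation of long minus short genes over the genome (x axis, log2 CPM), coloured by group. CPM are not scaled to exon length. Left, as counted: wild type replicates 3 and 2 stand at -0.80 and -0.38 on the x axis and at -0.03 and -0.09 on the y axis, away from the other 14. Right, with the length trend of each library removed: those 2 libraries lie at -0.29 and -0.19. The groups overlap in both panels.

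Genes around the proteasome were taken from lists chosen by function. A list of proteasome associated genes, dss-1 among them, had 9 matches. Of these 1 rose and 0 fell for triple against irld, for triple against wild type and in the pooled effect. That was near or below the 9.80%, 10.1% and 16.1% of all genes that rose. None was called elsewhere. The 1 that rose was aip-1, whose product is known to join the proteasome under arsenite stress. It had 18.5, 22.8, 21.3 and 22.1 CPM in wild type, 21.5, 18.9, 27.9 and 20.9 in irld, 33.4, 14.4, 68.9 and 11.8 in daf-2 and 49.6, 60.5, 24.8 and 141.8 in triple mutant libraries. The daf-2 and the triple mutant libraries differed several fold among themselves, and LRB458 replicate 4 and daf-2 replicate 3 were the highest of their groups. The log2 fold change of the triple mutant was 1.63 ± 0.54 against the irld mutant and 1.71 ± 0.54 against wild type, and the pooled change was 1.11 ± 0.38 (edgeR, adjusted p = 0.049, 0.0383 and 0.0374). Without LRB458 replicate 4 those values were 1.04, 1.09 and 0.80 and none was called. Among the 16 fits without 1 library the calls were lost in 12, 6 and 10, with adjusted p up to 0.183, 0.146 and 0.0898, and without wild type replicates 2 and 3 the pooled call was lost as well (adjusted p = 0.0916).

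The list around SKN-1A held 13 genes, activators and also wdr-23, which holds SKN-1 down. Of them 5 rose and 0 fell in the pooled effect, against 16.1% and 15.0% of all genes. In each of 3 others 2 rose and 0 fell, against 7.97% of all genes higher for daf-2 against wild type, 9.80% for triple against irld and 10.1% for triple against wild type. None was called in the remaining comparisons. The pair was cdc-48.1 and cdc-48.2, related copies that encode a segregase. It pulls proteins out of the endoplasmic reticulum and hands ubiquitinated proteins to the proteasome. The gene cdc-48.1 had 106.2, 79.2, 84.4 and 111.5 CPM in wild type, 104.1, 94.9, 114.5 and 102.5 in irld, 140.7, 119.9, 157.7 and 121.6 in daf-2 and 137.0, 136.5, 147.6 and 140.1 in triple mutant libraries. For cdc-48.2 the values were 51.3, 42.9, 41.6 and 58.4 CPM in wild type, 46.5, 41.98, 54.8 and 48.6 in irld, 68.1, 64.2, 81.2 and 66.5 in daf-2 and 68.4, 71.7, 78.6 and 78.03 in triple mutant libraries. Every library with daf-2(e1370) was above every library without it for both genes. Pooled log2 fold changes were 0.47 ± 0.09 and 0.58 ± 0.08 (edgeR, adjusted p = 0.000568 and 7.66e-05). For the daf-2 mutant alone they were 0.50 ± 0.12 and 0.53 ± 0.12 (adjusted p = 0.00928 and 0.00632), and without wild type replicates 2 and 3 they were 0.31 and 0.35 and not called (adjusted p = 0.0748 and 0.0658). Reads may have been split between the copies, since reads with 2 places were kept.

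The other 3 that rose in the pooled effect were wdr-23, a ubiquitin ligase adaptor that holds SKN-1 down, at 0.37 ± 0.12, png-1, the enzyme that removes sugars from SKN-1A, at 0.27 ± 0.09, and npl-4.2, a CDC-48 cofactor, at 0.16 ± 0.06 (edgeR, adjusted p = 0.023, 0.0281 and 0.049). For wdr-23, libraries ran from 90.3 to 107.1 CPM in wild type and from 100.7 to 109.9 in irld. Those of daf-2 ran from 98.2 to 171.8 and those of the triple mutant from 101.1 to 170.2, so the groups overlapped. The wdr-23 call was lost without wild type replicates 2 and 3, with the trend with exon length removed and without line LRB457 (adjusted p = 0.062, 0.0623 and 0.0717). For png-1 and npl-4.2 no alternative was run. The gene skn-1 was not called in any comparison, with means of 248.6 ± 75.9, 285.2 ± 15.1, 254.4 ± 22 and 261.7 ± 16.7 CPM (SD, n = 4) in wild-type, irld, daf-2 and triple mutant libraries. Nor was ddi-1, the protease that cuts SKN-1A, with 26.2 ± 3.87, 23.9 ± 0.96, 22.6 ± 1.5 and 24.9 ± 1.89 CPM. Counts per gene do not tell the product SKN-1A from other products of skn-1.

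Upstream of the proteasome, 11 of 24 tested genes for ubiquitin and the enzymes that activate and conjugate it fell with the daf-2 allele in the pooled effect and 0 rose, against 15.0% and 16.1% of all genes. For daf-2 against wild type 5 fell and 0 rose (7.74% and 7.97% of all genes). For triple against irld 10 fell and 1 rose (8.64% and 9.80%), and for triple against wild type 8 fell and 0 rose (10.4% and 10.1%). None was called for the irld alleles or the interaction. The median pooled change of the 24 was -0.14, against -0.005 over all genes tested. The strongest was in ubc-8, a conjugating enzyme, with 148.6, 156.7, 201.5 and 164.1 CPM in wild type, 154.3, 165.5, 147.0 and 166.9 in irld, 92.5, 112.2, 114.9 and 97.3 in daf-2 and 92.5, 91.3, 86.9 and 89.6 in triple mutant libraries. Every library with the allele was below every library without it, with a pooled log2 fold change of -0.75 ± 0.07 (edgeR, adjusted p = 1.56e-06).

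The gene let-70, a widely used conjugating enzyme, had 696.9, 732.8, 558.8 and 706.0 CPM in wild type, 766.7, 704.2, 692.8 and 702.7 in irld, 529.0, 529.8, 550.4 and 484.7 in daf-2 and 504.0, 494.5, 522.0 and 515.6 in triple mutant libraries. Here, too, all 8 libraries with the allele were below the other 8, and the pooled change was -0.43 ± 0.07 (edgeR, adjusted p = 0.000131). In the same comparison ubc-7 was at -0.44 ± 0.07, ubc-3 at -0.44 ± 0.08 and uev-3, a variant without conjugating activity of its own, at -0.40 ± 0.08. The ubiquitin gene ubq-2 was at -0.31 ± 0.08, while the polyubiquitin gene ubq-1 and the activating enzyme gene uba-1 were not called in any comparison (pooled -0.09 ± 0.08 and 0.19 ± 0.12). The gene that rose was ubc-18, at 0.27 ± 0.09 against the irld mutant (edgeR, adjusted p = 0.046), a call at the threshold for which no alternative was run.

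In a pair of complexes built like the lid, genes were called in both directions. In the pooled effect 16.1% of all genes rose and 15.0% fell, beside which the counts of 1 or 2 below stand. In the COP9 signalosome, which removes NEDD8 from ubiquitin ligases, 2 of 6 genes rose and 1 fell in the pooled effect: csn-6 at 0.21 ± 0.06, csn-4 at 0.16 ± 0.06 and csn-2 at -0.32 ± 0.06 (edgeR, adjusted p = 0.0161, 0.0433 and 0.000875). For csn-2, all libraries with the allele (54.04, 57.9, 59.97 and 52.8 CPM in the daf-2 mutant and 53.1, 50.8, 54.7 and 51.4 in the triple mutant) were below the wild-type libraries (67.2, 79.1, 70.01 and 62.5), and irld replicate 3 at 59.6 lay among them. In the translation initiation factor eIF3, 2 of 12 rose and 1 fell in the pooled effect: eif-3.D at 0.34 ± 0.08, eif-3.C at 0.33 ± 0.08 and eif-3.E at -0.23 ± 0.07 (edgeR, adjusted p = 0.00372, 0.00393 and 0.0268). The csn-4 call was lost in 12 and that of eif-3.E in 5 of the 16 fits without 1 library. For daf-2 against wild type 1 COP9 gene rose and 1 fell, and 2 eIF3 genes rose, against 7.97% and 7.74% of all genes. For triple against irld 1 COP9 gene fell and no eIF3 gene was called (9.80% and 8.64% of all genes). For triple against wild type 1 COP9 gene fell, and 1 eIF3 gene rose and 1 fell (10.1% and 10.4% of all genes). None was called for the irld alleles or the interaction.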

How the data were processed

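Polyadenylated RNA was sequenced from 16 pools of starved L1 larvae. The submitters' processing notes name Bowtie 1.2.2 for alignment to WS273, with reads kept that had up to 2 places, HTSeq 0.11.2 for counts per gene, and edgeR 3.24.4 for the interaction table. The deposited values used here are the authors' whole-number counts per gene. In each library 40.4% to 42.4% of reads had no gene and stayed out of all totals. From the authors' deposited table of 12690 genes, log2 fold changes and p-values were read for the 33 members only; its score, the quasi-likelihood F per the file headers, was not used. ERCC spike-ins were not used here.

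The 14058 genes that reached 1 CPM in 4 or more libraries were fitted together in edgeR 4.0.16 (R 4.3.3; quasi-likelihood, robust, TMM) over all 4 groups, with 7 contrasts and Benjamini-Hochberg adjustment over all genes tested. A gene was called at an adjusted p under 0.05. Levels are TMM-scaled CPM, and log2 CPM used a prior count of 2. Intervals of 95% used a t quantile of 2.18 (12 degrees of freedom). The p-values measure the spread between these libraries, whose separate origin the labels state only by calling them biological replicates. DESeq2 1.42.0 served as an alternative, and the trend with exon length was removed by lowess offsets per library. Code was tested on simulated data. Exon lengths and coordinates come from Ensembl 115 (WBcel235), a later annotation than the one used for counting.

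Members given library by library were those called (at most 8), those with the extremes of level per kb and of fold change in each comparison, and rpn-6.1, rpn-6.2, rpn-10, pbs-5 and rpt-3. From each related list, up to 3 called genes with the smallest adjusted p in each comparison were named, and skn-1, ddi-1, png-1 and aip-1 in any case. The genes rpn-2, npl-4.2, ubc-18, ubq-1, ubq-2 and uba-1 were named after their values were seen. The members and lists were chosen with earlier results of these data known. In the lists, psmd-10, pomp-1 and psmf-1 had no match by symbol. Promoter and protein sequences were not used here. No identical libraries were found (0 pairs).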

Additional observations from a re-analysis of the deposited data

Results flagged for a closer look

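In 10 of 144 groups of 4 libraries, 1 library lay far from the other 3 (Dixon's ratio above its 95% critical value), and chance gives about 1 in 20 such groups. In the irld mutant, pas-1 was 37.4 CPM in replicate 3 against 42.6 to 43.6, and replicate 1 was high for pas-2 (46.8 against 42.3 to 43.0) and pas-3 (118 against 99.9 to 101). In the triple mutant, LRB458 replicate 1 was high for pas-1 (51.7 against 44.3 to 45.3) and rpn-3 (124 against 101 to 105), and LRB457 replicate 3 was low for pas-5 (50 against 54.2 to 55.1). In the daf-2 mutant, replicate 3 was high for pbs-5 (122 against 105 to 107) and rpn-10 (73.6 against 59.5 to 61.6). In wild type, replicate 2 was high for rpn-7 (67.6 against 59.1 to 59.8), and the mean log2 CPM of the regulatory particle genes was 5.98 in it against 5.88 to 5.90 in the others. The gene nemt-1 overlaps 20.7% of the exon bases of rpn-7 on the other strand.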

How the results depend on the processing

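Most counts of members called in this section stand without the share of all genes called in the same fit. They show how calls shift with processing, not whether members differ from other genes. Without TMM scaling, by all reads, 2, 5, 3 and 12 members were called for daf-2 against wild type, triple against irld, triple against wild type and the pooled effect, where 0, 1, 0 and 6 stand in the text. The member medians were then 0.006, 0.21, 0.09 and 0.087 for triple against daf-2, irld and wild type and for the interaction, beside medians of 0.037, 0.072, 0.081 and 0.053 over all genes. The DESeq2 Wald test called 1 (daf-2 against wild type), 5 (triple against irld) and 10 (pooled), and DESeq2 size factors gave 2 for triple against irld. For triple against irld the count was 0 with no filter, with filterByExpr, without LRB457 and without LRB458, 3 with only the groups compared, and 4 without both replicates 3 of wild type and the daf-2 mutant. For the pooled effect it was 1 with no filter, 1 without LRB457 and 0 without LRB458. With the replicate block the counts were 0 (pas-2 lost) and 2 (4 of 6 lost). The numbers were not taken as pairs: no label ties a number to a day or batch, and 9 of 24 same-number pairs correlated above 0.1. The median r was 0.0315 for the same-number pairs (-0.462 to 0.308) and -0.0135 for 72 pairs of different numbers (-0.445 to 0.518). Of the 16 libraries, 8 were closest to a library of their own number. Whether a number marks shared variation was not tested.

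With the length trend removed the counts were 4 (triple against irld), 1 (triple against wild type, pas-4) and 11 (pooled). Over all genes 11.5%, 11.2% and 18% were called higher in that fit. Core minus regulatory was then -0.021 for irld and -0.008 for daf-2 against wild type, 0.022 for triple against wild type (from -0.071) and 0.046 for the interaction. Without wild type replicates 2 and 3 the counts were 1 (daf-2), 4 (triple against irld) and 13 (pooled), the member medians 0.14 (daf-2) and 0.074 (triple against wild type), and core minus regulatory -0.004, -0.03 and 0.055 for irld, daf-2 and the interaction. Without LRB458 it was -0.062 for triple against irld. The rpn-1 change of the irld mutant reversed to -0.034 without wild type replicate 3 and without both replicates 3, -0.111 without wild type replicates 2 and 3, and -0.003 with the trend removed. Leaving out 1 library at a time gave -0.034 to 0.233. Its interaction reversed to 0.011 without wild type replicates 2 and 3.

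Leaving out 1 library at a time gave 0 to 11 calls (pooled), 0 to 3 (triple against irld), 0 to 1 (daf-2 against wild type) and 0 elsewhere. The member medians then ran from -0.164 to -0.077 (irld), 0.026 to 0.084 (daf-2), -0.063 to -0.013 (triple against daf-2), 0.111 to 0.165 (triple against irld), -0.018 to 0.037 (triple against wild type), -0.026 to 0.133 (interaction) and 0.078 to 0.119 (pooled). Core minus regulatory ran from -0.138 to -0.067, -0.128 to -0.081, 0.009 to 0.051, -0.028 to 0.054, -0.091 to -0.046, 0.121 to 0.175 and -0.04 to -0.008 in that order. Motifs in promoters were not run. The 6 pooled calls had adjusted p from 0.032 to 0.0481, so small shifts decide them. The causes of these shifts were not tested.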
